A study of Mus musculus with 13 samples.

Results

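Sorted round spermatids from mice of 3 Wfdc15a genotypes fell into 2 sets of libraries that did not follow genotype alone. Set 1 held both wild-type (WT) libraries and knockout (KO) replicate 1, and set 2 held both heterozygous (Het) libraries and KO replicates 2 and 3. Only KO was in both sets, so the set difference cannot be told apart from WT against Het outside the KO libraries. These sets were chosen from the measured expression of the same libraries, in which Dcn, Col1a2, Clu and Meig1 stood far apart, so every set 2 against set 1 value here is a description and carries no test. The sets make up 7 of the 13 libraries of the series, with 3 in set 1 and 4 in set 2. The other 6 libraries are whole testis of the same genotypes.

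All animals were 25 days old, an age at which round spermatids are the most advanced germ cells of the first wave. These cells were collected by fluorescence-activated sorting after Vybrant DyeCycle Green staining of DNA, 100 to 200 cells a library, and amplified by Smart-seq2, which copies whole polyadenylated transcripts without recording strand. The labels do not describe the Wfdc15a allele or name the animal behind each library; p-values therefore reflect library-to-library spread alone, and that spread may be technical. No label gives a preparation date or batch for either set.

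Round spermatids are the haploid cells that follow meiosis; they build the acrosome and the flagellum and later replace histones by transition proteins and protamines. Much of their messenger RNA is made early and stored before it is translated. In the testis they lie among Sertoli cells inside the tubule, with peritubular myoid cells around it and Leydig cells, stromal fibroblasts, macrophages and vessels between tubules.

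In all 7 libraries spermatid genes were abundant. The 19 acrosome genes summed to between 5706 and 6933 reads-per-million (RPM), and the 27 axoneme and motility genes to between 16474 and 19171 RPM. Meiotic chromosome axis genes, which mark earlier germ cells, were present beside them at sums of 2124 to 3375 RPM. None of these sums overlapped between the sets. Acrosome genes summed to 6764 to 6933 RPM in set 1 and 5706 to 6177 RPM in set 2. Axoneme sums were 18860 to 19171 against 16474 to 16866 RPM, and meiotic sums 2124 to 2303 against 3079 to 3375 RPM. Library totals ran from 10825690 to 20927428 reads. Mean totals were 14249658 ± 2600415 (SD, n = 4) in set 2 and 19478989 ± 2060316 (SD, n = 3) in set 1. Every set 2 total (at most 17069475) lay below every set 1 total (at least 17120321). An exact two-sided permutation test gave p = 0.0571, the smallest it can return with these group sizes, so it could not fall below 0.05. Set 2 nevertheless had a read for more genes in each library (21498 to 23092) than set 1 (19966 to 20801). Principal component 1 (55.6% of variance) separated the sets. Pearson correlations across genes were 0.961 to 0.972 within a set and 0.893 to 0.935 between sets, KO replicate 1 lying nearer to set 2 (0.920 to 0.935) than its WT partners did.

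The targeted gene, Wfdc15a, encodes a WAP four-disulfide core protein, a family that includes secreted protease inhibitors. It lies on chromosome 2 from 164198863 to 164200130 (mm10). In set 1 its level was 267 RPM in WT replicate 1, 234 RPM in WT replicate 2 and 97.9 RPM in KO replicate 1. In set 2 Het replicates 1 and 2 gave 65.0 and 71.5 RPM, and KO replicates 2 and 3 gave 67.4 and 48.1 RPM. Every set 2 library was thus below every set 1 library, and Het overlapped KO. Set 2 minus set 1 was -1.54 (SE 0.41) on the log2(RPM + 1) scale, which is used for all differences below and understates those of genes near 0. Reads of the gene remained in every library labelled KO, so its level does not separate KO from Het.

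Of the 18075 genes tested (reaching 1 RPM in 2 or more of the 7 libraries), 2505 (13.9%) were higher and 810 (4.48%) lower in set 2, counting genes with no overlap between the sets and a difference of at least 2-fold. Of those higher, 479 differed by at least 4-fold and 130 had no read in any set 1 library. Of those lower, 22 differed by at least 4-fold and 0 by 8-fold. The genes higher in set 2 were mostly scarce, with a median of 2.24 RPM in set 1 and 10.03 RPM in set 2, whereas those lower were more abundant, at 35.4 and 13.5 RPM. Just inside the 2-fold limit (1 to 1.1 on the log2 scale) lay 349 of the higher and 169 of the lower genes, and just outside it (0.9 to 1) lay 368 and 216 that did not overlap. The median over all genes tested was 0.22, and the split depended on scaling: with libraries centred on their median, 1288 were higher and 1871 lower, and with quantile normalization 1421 and 1559. Without KO replicate 1, 1244 were lower. Direction for a gene near the all-gene median is therefore relative to the scaling.

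Genes of extracellular matrix and stromal fibroblasts stood farthest above set 1 in set 2. Of the 12 genes with the widest gap between the sets, 8 encode matrix proteins or matrix-binding proteins: Dcn, Col1a2, Col3a1, Sparc, Col6a2, Col6a1, Lamb1 and Col1a1. Dcn, a small proteoglycan that binds collagen fibrils (chromosome 10, 97479609 to 97518143), was at 0.175, 0.0490 and 0.478 RPM in set 1 (WT replicates 1 and 2, KO replicate 1). In set 2 (Het replicates 1 and 2, KO replicates 2 and 3) it was at 206, 177, 214 and 299 RPM. It was nearly absent from set 1 and present in every set 2 library, a difference of 7.50 (SE 0.22).

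Col1a2, a chain of type I collagen (chromosome 6, 4504814 to 4541544), was at 0.701, 0.392 and 0 RPM in set 1 and at 120, 95.0, 109 and 196 RPM in set 2, a difference of 6.56 (SE 0.33). Its partner chain Col1a1 was at 0.643, 1.86 and 1.29 RPM against 38.5, 42.2, 55.8 and 126 RPM. Col3a1, the fibrillar collagen that accompanies type I, was at 2.69, 0.785 and 0 RPM against 157, 142, 212 and 398 RPM. For all 3 collagens KO replicate 3 held the highest value. Col6a2, a microfibrillar collagen chain, had no read in set 1 and was at 18.5, 21.2, 17.99 and 39.7 RPM in set 2. With set 1 placed at 3 reads over its 3 libraries, that is 474-fold higher, a figure that takes reads as independent counts.

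Of the 20 stromal and matrix genes, 16 were higher, 0 lower and 4 met neither condition, and the list median was 3.42 against 0.22 over all genes tested. Their summed level was 20.9, 43.7 and 23.1 RPM in set 1 and 769, 696, 913 and 1549 RPM in set 2. The widest gaps outside the matrix group belonged to Gsn (an actin-severing protein, 0.490 to 1.67 RPM against 118 to 161 RPM) and Akr1cl (an aldo-keto reductase, at most 0.191 RPM against 16.9 to 28.7 RPM). Clu, given below with Sertoli cell genes, and Pltp (phospholipid transfer protein, at most 0.245 RPM against 17.3 to 34.4 RPM) came next. In bulk libraries, fewer cells of a type and less RNA per cell cannot be told apart.

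**Figure D1:**
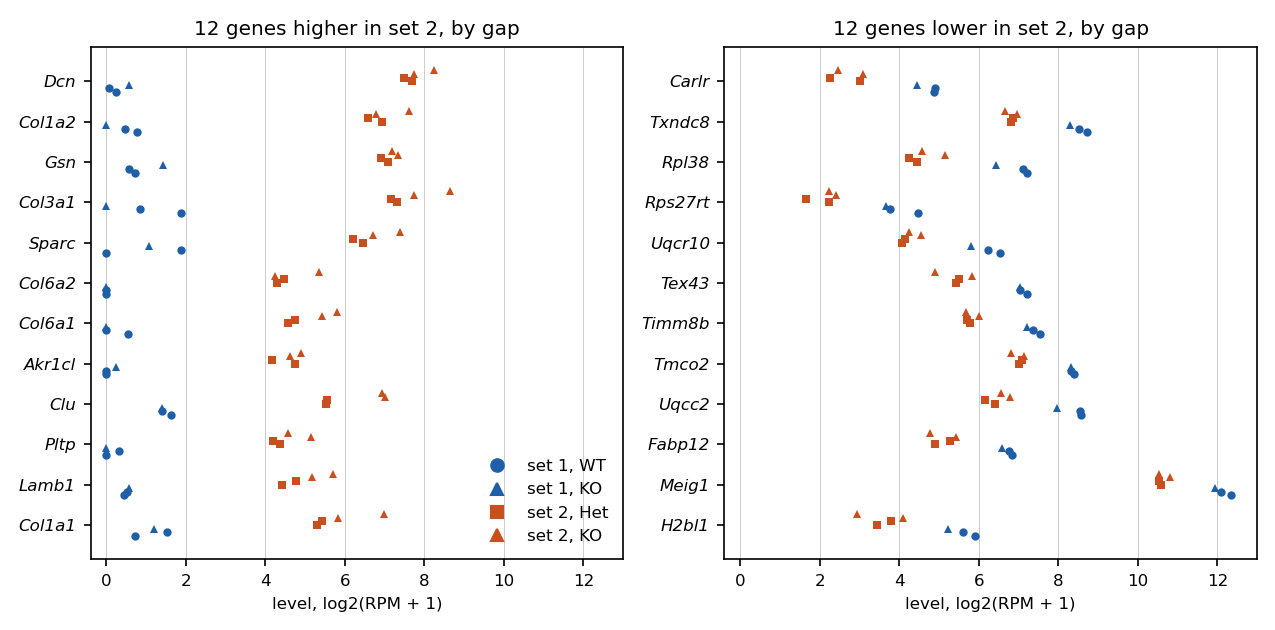
Level of the 12 genes with the widest gap in each direction, as log2(RPM + 1), with a point for each of the 7 round spermatid libraries (blue, set 1; orange, set 2; shape, genotype). Genes higher in set 2 sit low in set 1, whereas genes lower in set 2 are expressed in both sets.

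Promoters of 3 genes with wide gaps are shown as examples of the windows searched for motifs; they do not stand for their groups. The windows run from 250 bases before to 50 after a RefSeq transcription start (build GRCm38.p6). Capitals mark every match, on either strand and overlaps included, to any of 4 motifs. They are the CCAAT box, the GC box (GGGCGG), the TATA box (letters TATAAA) and the full cyclic AMP response element (letters TGACGTCA). Col1a2 is shown as a gene higher in set 2 (chr6:4505368-4505667, plus strand), and Txndc8, a spermatid thioredoxin (chr4:58009077-58009376, minus strand), and Rpl38, a ribosomal protein gene (chr11:114668330-114668629, plus strand), as genes lower in set 2.
Col1a2: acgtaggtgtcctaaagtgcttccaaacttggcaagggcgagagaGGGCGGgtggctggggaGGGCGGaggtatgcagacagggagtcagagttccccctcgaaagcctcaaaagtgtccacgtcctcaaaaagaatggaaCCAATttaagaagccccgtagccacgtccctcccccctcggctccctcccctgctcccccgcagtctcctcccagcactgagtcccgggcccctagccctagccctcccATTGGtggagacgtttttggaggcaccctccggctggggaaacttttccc
Txndc8: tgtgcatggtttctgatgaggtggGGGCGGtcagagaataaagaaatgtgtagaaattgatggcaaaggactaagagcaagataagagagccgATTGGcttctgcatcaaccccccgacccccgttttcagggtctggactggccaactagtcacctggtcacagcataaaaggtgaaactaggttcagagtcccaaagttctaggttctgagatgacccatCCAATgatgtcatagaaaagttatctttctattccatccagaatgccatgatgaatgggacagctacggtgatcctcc
Rpl38: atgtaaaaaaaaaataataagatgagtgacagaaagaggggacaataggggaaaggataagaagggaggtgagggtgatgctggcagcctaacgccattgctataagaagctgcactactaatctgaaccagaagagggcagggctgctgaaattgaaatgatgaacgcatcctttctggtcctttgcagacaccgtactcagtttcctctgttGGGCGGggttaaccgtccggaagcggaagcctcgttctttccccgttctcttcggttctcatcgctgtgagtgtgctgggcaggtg
These windows hold 13, 5 and 11 CpG dinucleotides, and each holds a GC box. A promoter was found for 13158 of the genes tested, 1968 of those higher and 562 of those lower. Genes higher in set 2 had a median of 21 CpG and genes lower 9.5, against 19 over all genes tested. The GC box occurred in 69.4% of the higher, 34.5% of the lower and 57.2% of all promoters. The full cyclic AMP response element, the site of the spermatid regulator CREM, occurred in 2.998%, 2.85% and 3.15%. The TATA box occurred in 9.25%, 13.2% and 10.5%, and the CCAAT box in 44.8%, 41.5% and 42.5%. Genes with several starts counted as holding a motif when any start did, and a match describes letters only.

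Sertoli cell genes were higher in set 2 as well, but not in the same proportion in its libraries. Clu, a secreted chaperone abundant in Sertoli cells (chromosome 14, 65968483 to 65981547), was at 2.103, 1.62 and 1.62 RPM in set 1. It was at 45.4 and 46.1 RPM in the Het libraries and at 129 and 122 RPM in KO replicates 2 and 3. Ctsl, a lysosomal protease secreted by Sertoli cells, was at 2.22, 4.22 and 0.382 RPM in set 1 and 33.2, 46.6, 77.9 and 99.2 RPM in set 2. Amhr2, the receptor of anti-Müllerian hormone, was at 0.589 to 1.43 RPM against 7.94 to 19.6 RPM.

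Of 18 Sertoli genes tested, 8 were higher and 0 lower (median 1.16), with a summed level of 31.6 to 45.4 RPM in set 1. In set 2 the sum was 147 and 156 RPM for Het replicates, and 341 and 331 RPM for the KO replicates. Defining Sertoli transcription factors did not move alike: Wt1 was at 2.16, 0.0981 and 0.0956 RPM in set 1 and 5.86, 2.31, 5.33 and 4.26 RPM in set 2, with no overlap. Gata1 (0.350 to 0.785 against 0.369 to 5.54 RPM) overlapped, and Sox9 reached 1.17 RPM at most. Dhh, a signal from Sertoli to Leydig cells, was at 7.93 to 10.6 RPM against 4.53 to 10.3 RPM. Amh had no read in 6 of the libraries and was at 0.284 RPM in KO replicate 3.

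Leydig cell genes, which make androgen, showed the same split with a different order of libraries. Cyp17a1, the enzyme that makes androgens from progestins, was at 0, 0 and 0.191 RPM in set 1 and 22.6, 21.3, 8.26 and 39.3 RPM in set 2. Hsd3b1 was at no more than 0.0956 RPM in set 1 and at 6.53, 7.11, 4.34 and 15.5 RPM in set 2. KO replicate 2 was thus lowest for both within set 2, while it was highest for Clu. Of 11 Leydig genes tested 9 were higher and 0 lower (median 2.12); Fdx1, an electron carrier expressed beyond Leydig cells, was 60.2 to 82.1 RPM in set 1 and 31.3 to 42.5 RPM in set 2, and it made up 97.1% of the summed list in set 1. Without it the list summed to 0.392 to 3.25 RPM in set 1 and 36.4 to 91.9 RPM in set 2.

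Other somatic lists were less uniform, and their counts are read against the 13.9% of all genes tested that were higher. Of 10 peritubular myoid genes 6 were higher and 0 lower (median 1.53), among them Myl9, a smooth-muscle myosin light chain, at 0.334 to 1.52 RPM against 6.10 to 17.0 RPM, and Acta2, smooth-muscle actin, at 0 to 1.18 RPM against 3.33 to 8.38 RPM. Actg2, another smooth-muscle actin, went the other way (108 to 141 against 50.3 to 69.9 RPM, a difference of -0.99) and made up 91.8% and 50.02% of the list's sum in sets 1 and 2. That sum did not differ in one direction (116 to 157 against 111 to 129 RPM), whereas without Actg2, left out after seeing the data, it was 7.55 to 15.8 RPM against 50.6 to 70.4 RPM. Of 14 macrophage and leukocyte genes 3 were higher and 0 lower (median 0.86). Differences were positive for 11 of them and negative for 3. Lyz2, lysozyme of myeloid cells, was at 0, 1.77 and 2.68 RPM against 4.53, 8.96, 14.1 and 11.6 RPM. H2-Ab1 went the other way without overlap but short of 2-fold (39.3 to 47.3 against 16.9 to 30.6 RPM, a difference of -0.80). Cx3cr1, named for its role on macrophages, was at 583 to 707 RPM in set 1 and 954 to 1099 RPM in set 2 and made up 90.9% and 93.0% of the summed list, so that sum does not follow the other genes of the list. Of 6 endothelial genes 1 was higher and 0 lower (median -0.32), and red blood cell genes summed to no more than 3.58 RPM. With so few members, the macrophage and endothelial counts lie near the share of all genes.

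**Figure D2:**
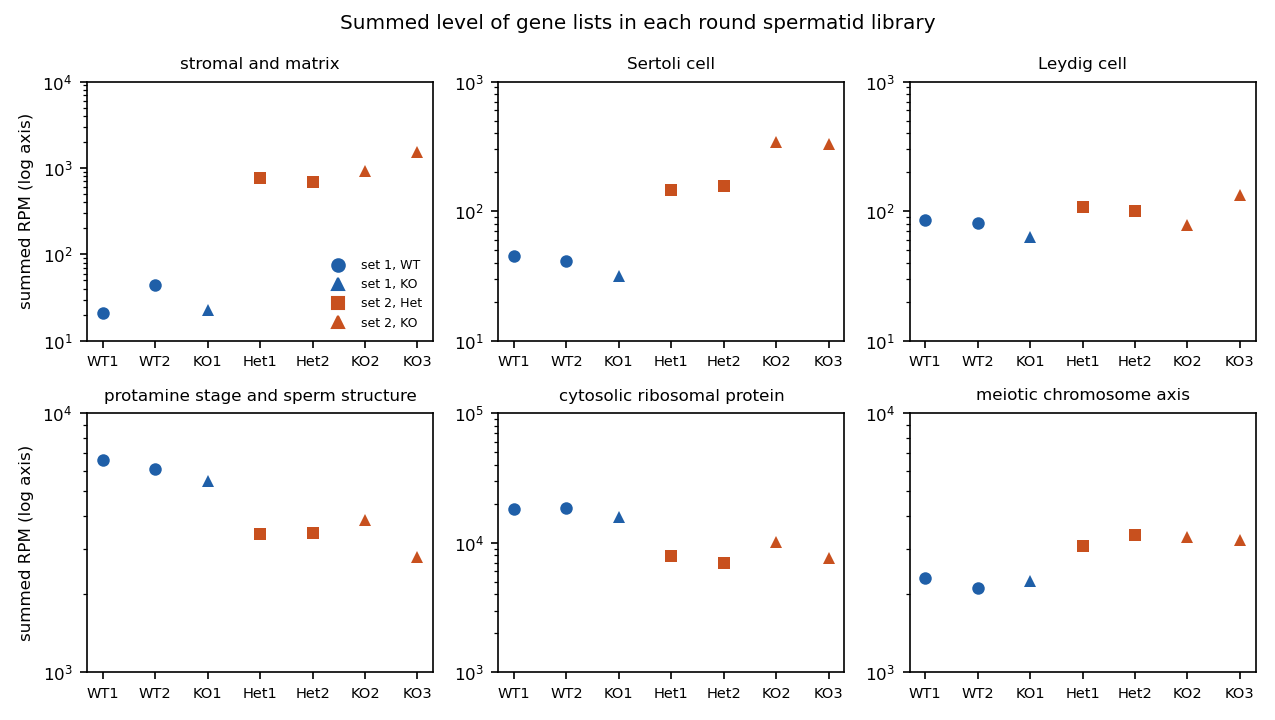
Summed RPM of 6 gene lists (log axis) in each of the 7 round spermatid libraries, colored by set and shaped by genotype. The stromal list reached 696 to 1549 RPM in set 2 against 20.9 to 43.7 RPM in set 1, and the Sertoli list was highest in KO replicates 2 and 3.

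Whole testis libraries of the same names were set beside the sorted spermatids. Among Het replicate 1 and KO replicates 2 and 3, the stromal list in sorted spermatids stood at 51.8%, 58.3% and 70.8% of the level in the testis library of the same name. The Sertoli list stood at 6.32%, 14.1% and 12.7%, and the Leydig list at 11.1%, 8.43% and 18.6%, or 7.35%, 4.17% and 14.1% without Fdx1, a choice made after seeing the data. In set 1 the stromal list stood at 42.0% and 68.6% of testis in WT replicates 1 and 2 and at 6.47% in KO replicate 1. The Sertoli list stood at 19.0%, 20.8% and 33.6% in these libraries, above each of its set 2 percentages. The Leydig list, of which Fdx1 made up 97.1% in set 1 spermatids, stood at 39.3%, 37.4% and 31.3%. Carry-over of somatic cells or RNA was not tested. Dcn was at 148, 146 and 166 RPM in those testis libraries, below its 206, 214 and 299 RPM in the spermatids, whereas Clu was at 1149, 1159 and 1204 RPM, well above its 45.4, 129 and 122 RPM. In the testis libraries named as set 1, Dcn was at 2.39 and 3.29 RPM (WT) and 72.9 RPM (KO replicate 1), and Clu at 16.3, 17.5 and 2.44 RPM, so Clu was low in all 3 of these whole testis libraries and Dcn in both WT.

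The split in spermatids and the split of the same-named testis libraries ran together across genes (Pearson 0.751 over 18075 genes, which share library preparation and are not independent replicates). Of the genes higher in set 2 of spermatids, 2249 (89.8%) met the same conditions in testis, where 41.5% of all genes tested did. Of those lower, 538 (66.4%) did, against 8.45% of all. The testis median over all genes was 0.87. Only 8 genes met the conditions in opposite directions: Camk2b, Ccdc71l, Gm44097, Gm36368, Gm45079 and Trappc2 were lower in spermatids and higher in testis, and Trpc4 and Rpl39 the reverse; these names were chosen after their values were seen.

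Some genes of earlier germ cells were nearly absent from set 1 and present in set 2. Of 11 spermatogonial genes 5 were higher and 0 lower (median 1.27). Stra8, which germ cells switch on at meiotic entry, was at 0.0584, 0 and 1.86 RPM in set 1 and at 8.39, 7.67, 10.3 and 4.54 RPM in set 2. Of 20 meiotic axis and recombination genes 9 were higher and 1 lower (median 0.88). Dmc1, the meiotic strand-exchange recombinase, was at 0.239 to 0.785 RPM in set 1 and 18.1, 25.7, 37.8 and 3.05 RPM in set 2, with KO replicate 3 far below the other libraries of its set. Spata22, its partner in recombination, was at 0, 0 and 0.191 RPM against 7.46, 13.6, 6.56 and 2.98 RPM.

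More abundant meiotic transcripts were mixed. Stag3, a meiotic cohesin subunit, was at 379, 400.3 and 556 RPM against 839, 897, 957 and 1105 RPM, and Hormad1, an axis protein, at 53.0 to 104 RPM against 167 to 196 RPM. Sycp2, a component of the chromosome axis, was at 168, 125 and 110 RPM against 346, 377, 319 and 330 RPM. Smaller differences were seen for Sycp3, at 185 to 211 RPM against 224 to 266 RPM, and Syce1, at 774 to 836 RPM against 820 to 879 RPM. The gene lower on the list was Syce3, a central-element gene, at 77.1, 82.5 and 48.5 RPM in set 1 and 16.7, 18.7, 33.0 and 13.1 RPM in set 2.

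Among genes of germ cell mRNA storage and the chromatoid body, the RNA-binding proteins Dazl (13.6 to 24.3 against 62.5 to 140 RPM) and Ddx4 (606 to 958 against 1676 to 1964 RPM) were higher in set 2. So was the piRNA-binding Piwil1 (9.05 to 19.9 against 49.8 to 63.1 RPM). Of 15 genes on that list 5 were higher and 1 lower. The lower gene was Ybx3, at 159 to 378 RPM against 89.6 to 138 RPM.

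Genes of late spermatid differentiation were lower in set 2. Of 20 protamine-stage and sperm structure genes, 8 were lower and 0 higher, with a median of -0.83. Tnp1, the transition protein that replaces histones before protamines, was at 194, 183 and 123 RPM in set 1 and 47.8, 50.1, 69.0 and 19.7 RPM in set 2. Prm1, the protamine that packs sperm DNA, was at 150, 152 and 68.8 RPM against 49.1, 42.8, 54.2 and 13.1 RPM. For both genes KO replicate 1 was lowest in set 1 and KO replicate 3 lowest in set 2. Somatic and meiotic genes and transcript length moved with this group, and their part in it was not tested.

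Not every gene of that stage followed. Akap4, the main fibrous sheath protein, was at 486 to 637 RPM in set 1 and 457 to 528 RPM in set 2, and Brdt, a histone-reading protein of chromatin removal, at 170 to 196 RPM against 149 to 192 RPM. Of 19 acrosome genes 3 were lower (Spaca7, Izumo2 and Tmem190) and 0 higher, with a median of -0.24. Izumo2, a relative of the sperm-egg fusion protein, was at 204, 168 and 145 RPM against 67.3, 66.1, 77.0 and 43.2 RPM. Of 8 CREM network regulators 0 met the conditions. As 4.48% of all genes tested were lower, that count says little for so short a list. Differences were negative for 6 of them and positive for 2, with a median of -0.21. Crem itself was at 715 to 909 RPM against 659 to 721 RPM.

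Meig1, needed to build the sperm flagellum (chromosome 2, 3409043 to 3422648), was lower in set 2, unlike most of its list. It was at 5234, 4358 and 3966 RPM in set 1 and at 1525, 1482, 1792 and 1491 RPM in set 2, a difference of -1.52 (SE 0.12) with no overlap. Of 26 axoneme and motility genes it was the only 1 lower; Cfap44 and Cfap70, which encode large flagellar proteins, were higher (68.2 to 91.4 against 170 to 181 RPM for Cfap44). The list median of 0.25 lay at the all-gene median and changed sign when libraries were centred. Its summed RPM was lower in every set 2 library than in any set 1 library, with Meig1 making up 23.7% of the sum in set 1. Other testis genes with wide gaps downward were Txndc8 (422, 369 and 316 against 111, 114, 125 and 101 RPM), Tmco2 (319 to 337 against 110 to 140 RPM), Fabp12 (95.7 to 114 against 26.2 to 42.4 RPM), Tex43 and the histone variant gene H2bl1.

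Of the lists, the ribosomal protein genes held the most genes lower in set 2. Of 81 cytosolic ribosomal protein genes 47 were lower, 4 higher and 30 neither, with a median of -1.16. Their sum was 18277, 18454 and 15773 RPM in set 1 and 7943, 6987, 10144 and 7642 RPM in set 2. Rpl38, a large-subunit protein, was at 148, 136 and 85.3 RPM in set 1 and 20.98, 18.1, 34.7 and 22.7 RPM in set 2, the widest gap on the list. Rplp0, the most abundant, differed less (1160 to 1323 against 763 to 915 RPM). The 4 higher genes were Rps4x, Rpl10, Rpl39 and Rpl14; the first 3 of these lie on chromosome X. Rps4x was at 2.34, 0 and 2.91 RPM against 15.8, 23.7, 28.2 and 38.0 RPM. Reads of ribosomal protein genes can be shared with their many processed copies, and the counting rule was not found in the labels or notes.

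Nuclear-encoded respiratory chain genes were lower to a similar extent. Of 79 tested 36 were lower and 0 higher (median -0.89), with sums of 12820 to 14664 RPM in set 1 and 8163 to 9594 RPM in set 2. Uqcr10, a small subunit of complex III, was at 92.3, 73.8 and 54.4 RPM against 15.9, 16.8, 22.4 and 18.03 RPM. Cox7a2, a small subunit of cytochrome oxidase, was at 782, 686 and 644 RPM against 215, 206, 323 and 219 RPM. Among germ cell energy genes, Cox6b2, the testis form of another oxidase subunit, was lower (369 to 550 against 121 to 214 RPM), and Slc2a3, a glucose transporter, was higher (291 to 410 against 768 to 1167 RPM).

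**Figure D3:**
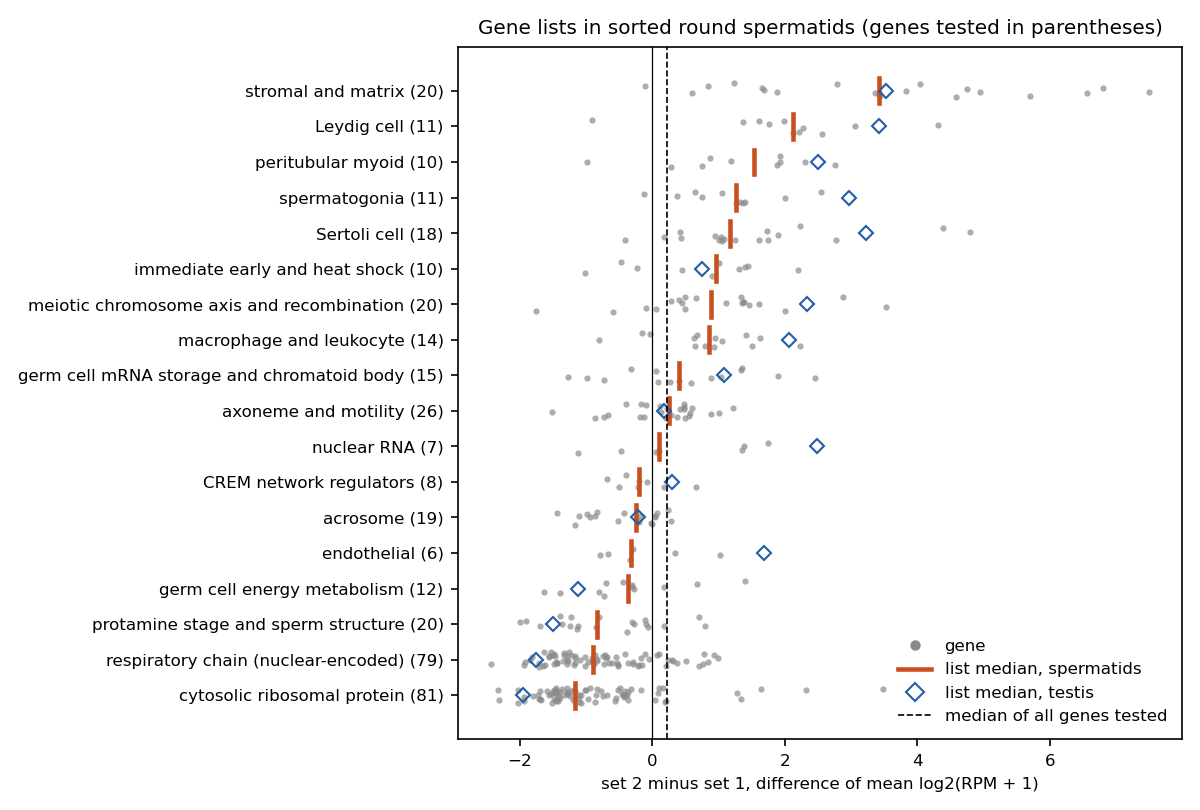
Set 2 minus set 1 for each tested gene of 18 lists (gray points), with the list median in spermatids (orange bar), the median in whole testis (blue diamond) and the median of all genes tested (dashed, 0.22). Stromal genes have a median of 3.42 and ribosomal protein genes of -1.16.

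Set differences went with transcript length and with expression level. In 14609 protein-coding genes, Pearson correlation with log10 of the longest annotated transcript was 0.264, and 0.352 for the same split in testis. Within a genotype it was 0.0254 for WT replicate 2 minus 1, 0.0248 for Het replicate 2 minus 1 and 0.0811 for KO replicate 3 minus 2. These belong to 40 correlations (5 gene features by 8 contrasts) computed over genes that share libraries, and are given without a p.

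Genes were placed in 5 bins of equal size by length. The bin of the shortest (27 to 1811 bases) had 8.97% higher and 11.2% lower, with a median of -0.16. The bin of the longest (5249 to 123179 bases) had 19.9% higher and 0.650% lower, with a median of 0.50. The median transcript was 3755 bases in genes higher in set 2, 1036 bases in genes lower and 3274 bases in all. By exon number the top bin (16 to 347 exons) had 26.5% higher, the largest share in any bin of the 4 annotated features examined. For GC content the correlation was -0.0178, and for mean log2(RPM + 1) over the 7 libraries it was -0.234. Split at the medians of length and level, 20.1% of short, low-level genes were higher and 1.74% lower. For long, low-level genes these shares were 22.2% and 0.507%. At high level they were 6.23% and 9.12% for short genes, and 16.4% and 1.46% for long genes. Library by library, the bin of the longest stood 0.60 and 0.62 above the set 1 mean in Het and 0.43 and 0.41 above it in KO of set 2, while KO replicate 1 stood -0.18 from it.

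Ribosomal and respiratory chain genes are short, with median longest transcripts of 1094 and 1001 bases, and stromal genes long, with 5386 bases. When a smooth curve on transcript length was removed from each library, 1285 genes were higher and 1146 lower. The list medians were then 3.17 for stromal, 1.34 for Sertoli, 1.83 for Leydig, -0.997 for ribosomal protein, -0.79 for respiratory chain and -0.64 for protamine-stage genes. These lists kept their direction, and the medians of axoneme genes (-0.07) and nuclear RNAs (-0.39) turned negative. The part of RNA length, RNA quality or amplification in the set difference was not tested.

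**Figure D4:**
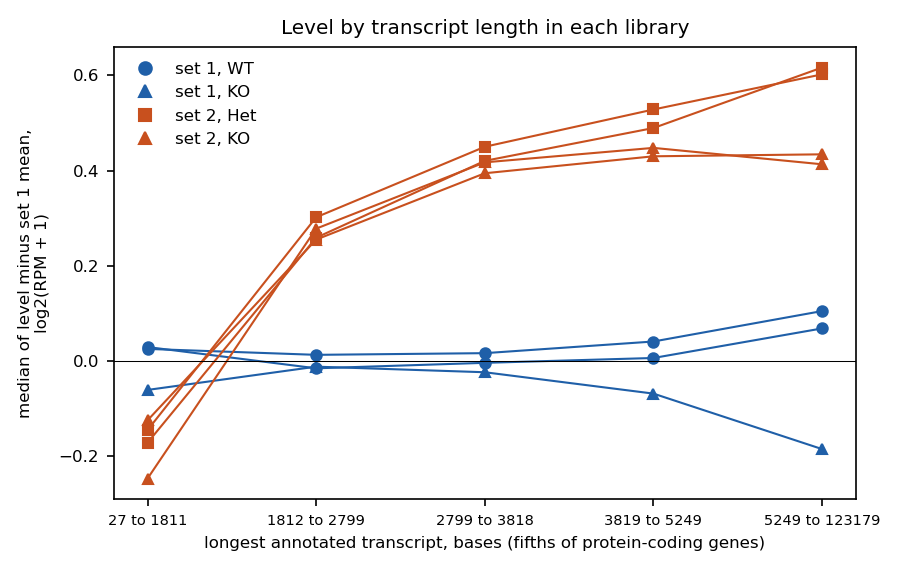
Median over genes of the level minus the set 1 mean, log2(RPM + 1), in each of 5 bins of longest-transcript length, with a line for each library. Set 2 libraries run from -0.25 to -0.12 in the shortest bin up to 0.41 to 0.62 in the longest, and set 1 libraries stay between -0.18 and 0.10.

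Gene type and chromosome also separated the sets. Of 1655 long intergenic noncoding RNAs 1.69% were higher and 11.9% lower, against 16.2% and 3.24% of protein-coding genes. Of 649 genes on chromosome X, which is silenced in meiosis and only partly active in round spermatids, 26.7% were higher and 4.47% lower, with a median of 0.51. Single autosomes had 9.15% to 15.7% higher. With transcript length removed, 17.4% of X-linked and 6.89% of autosomal genes were higher. The nuclear RNA Malat1 was higher (6.40 to 15.4 against 34.1 to 47.3 RPM), and Miat lower (16.4 to 19.6 against 5.68 to 10.3 RPM). Of 10 immediate early and heat shock genes, many of which respond to handling of tissue, 5 were higher and 0 lower (median 0.96). Klf6 was at no more than 0.0956 RPM in set 1 and 1.94 to 7.32 RPM in set 2. The summed list was not higher in set 2 (342 to 430 against 293 to 348 RPM), Dnajb1 making up 82.5% and 72.0% of it. With transcript length removed, 3 were higher and 1 lower (median 0.48). A part of handling was not tested.

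The split was also drawn within a single genotype and apart from it. KO replicates 2 and 3 minus KO replicate 1, and Het minus WT, share no library. Their differences correlated across genes (Pearson 0.685, n = 18075 genes, a description, since both contrasts were part of the choice of sets). In both, 1822 genes were at least 2-fold higher and 402 at least 2-fold lower, and 26 were past 2-fold in opposite directions. The stromal median was 4.06 in the KO contrast and 2.79 in Het minus WT. The Sertoli medians were 1.84 and 0.78, and the ribosomal medians -0.79 and -1.43.

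**Figure D5:**
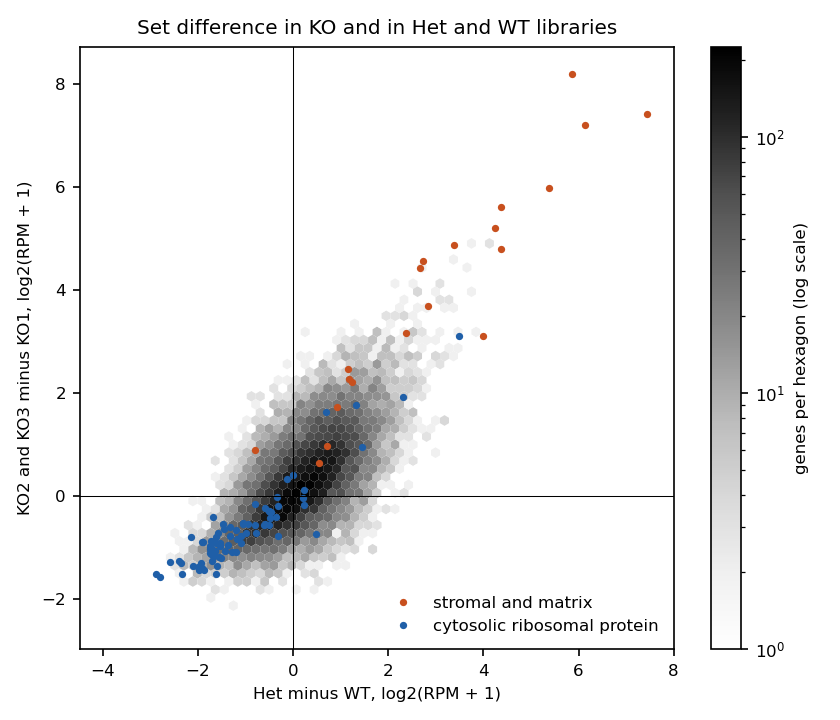
Each of 18075 genes by Het minus WT (horizontal) and KO replicates 2 and 3 minus KO replicate 1 (vertical), log2(RPM + 1), gray by number of genes, with stromal (orange) and ribosomal protein genes (blue) on top. Most stromal genes lie high in both contrasts, and most ribosomal protein genes below 0 in both.

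Genotype was compared within sets using limma on all 7 libraries with Benjamini-Hochberg adjustment at 0.05. The sets were drawn from the expression of these same libraries. They decide which reference each KO library meets and the spread in the fit, so the p-values are not independent of that choice. With set as a covariate, the KO effect averages KO minus WT in set 1 with KO minus Het in set 2. The difference of the KO effect between the sets mixes set with WT against Het. With set as a covariate 69 genes (0.382% of those tested) changed with KO, 4 up and 65 down. Within set 1 the fit called 89 (0.492%), but its KO arm is a single library that is assumed to vary like the other groups, so there a KO effect and the library cannot be told apart. Within set 2, KO against Het, 3 (0.0166%) changed, all down: Gm10800, Gm10801 and Gm21738, predicted genes named after their values were seen. The test of the difference of the KO effect between the sets called 0 genes (0%), with 1348 at an unadjusted p under 0.05, while voom called 1. These counts were not stable: without Het replicate 1, and likewise without Het replicate 2, the count was 0 in all 4 contrasts, without KO replicate 3 the covariate count was 7, and voom gave 80 up and 36 down in place of 4 and 65.

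None of the 24 genes named by gap changed with KO in the fit with set as a covariate or within set 2. Choice by gap disfavors genes whose KO and reference libraries lie far apart within a set. With 0.382% of all genes tested called, few calls were possible among 24, so their absence says little about these genes. Of the 2505 genes higher and 810 lower in set 2, 5 (0.200%) and 2 (0.247%) changed in the fit with set as a covariate, against 0.382% of all genes tested. Within set 1 the fit called 22 (0.878%) and 2 (0.247%) of them, against 0.492% of all. Wfdc15a fell by 0.80 (SE 0.15, limma adjusted p = 0.0333) in the fit with set as a covariate. KO replicate 1 differed from WT by -1.34, a value of 1 library. Within set 2 its KO minus Het difference was -0.26 (SE 0.19, limma adjusted p = 0.844).

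Among the genes that fell were long ones, such as Ttn, Fsip2 and Hectd4 (longest transcripts 106824, 21116 and 15482 bases), and short ones, such as Snrpf (861 bases). In the top of 5 bins of gene span, protein-coding genes stood -0.20 from the set 1 mean in KO replicate 1 and 0.08 and 0.10 in WT. In set 2 they stood 0.19 and 0.12 from that mean in KO and 0.50 and 0.46 in Het. The part of gene length or span in the KO calls was not tested. Psme4, the proteasome activator that removes acetylated histones in spermatids, stood in set 1 at 685 and 646 RPM (WT) against 346 RPM (KO). In set 2 it stood at 521 and 492 RPM (Het) against 330 and 292 RPM (KO). It fell by 0.82 (SE 0.10, limma adjusted p = 0.00217), lower in every KO library than in each reference library of its set. Cul3, a ubiquitin ligase scaffold, fell by 1.003 (SE 0.13, limma adjusted p = 0.00383), Dnah8, an axonemal dynein heavy chain, by 0.58 (SE 0.08, adjusted p = 0.00383), and Fgf14 by 1.52 (SE 0.22, adjusted p = 0.00725).

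Ptprc, the common antigen of leukocytes, followed genotype and not set. WT libraries held 4.85 and 2.16 RPM, Het libraries 6.19 and 5.17 RPM, and KO replicates 1 to 3 held 0.0956, 0 and 0.142 RPM. It fell by 2.31 (SE 0.39, limma adjusted p = 0.0188) and was named after its values were seen.

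Of the 4 genes that rose, Adam2, a sperm surface metalloprotease-like protein, went from 549.6 and 590 RPM to 998 RPM in set 1 and from 1437 and 1551 RPM to 1470 and 1706 RPM in set 2, a mean difference of 0.45 (SE 0.08, limma adjusted p = 0.0317). It was also higher in set 2 by 1.16. Cep72 and Fancd2 rose by 0.50 and 0.73. Within set 2, which leaves KO replicate 1 out of the contrast, the difference was 0.09 (SE 0.11, limma adjusted p = 0.927) for Adam2 and 0.19 (SE 0.12, limma adjusted p = 0.814) for Cep72. For Fancd2 it was 0.48 (SE 0.19, limma adjusted p = 0.643). In the covariate fit 0 genes rose with a pseudocount of 0.1 RPM, with no filter, with the replicate block, or without KO replicate 3 or either Het replicate, and 5 to 80 rose with quantile normalization, a mean of at least 5 RPM or voom. Within set 2 Clu was higher in both KO libraries than in both Het libraries, a difference of 1.43 (SE 0.29) that did not pass the threshold (limma adjusted p = 0.263), and Dcn, Col1a2 and Meig1 differed by 0.41, 0.45 and 0.12 (adjusted p of 0.833 to 0.871).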

How the data were processed

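RNA was sequenced from 13 libraries, of which the 7 of sorted round spermatids are described and the 6 of whole testis set beside them. Per the submitters' processing notes, the tools were HISAT2 2.1.0, FastQC 0.11.8 and Trim Galore 0.6.6, and the build was mm10. The counting program and annotation were not given in the sources used. The authors deposited log2 reads-per-million (RPM) for 30479 genes. Steps between low values gave the reads behind each value, with 0.9 read standing for none. No mitochondrial gene had a read.

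Values were turned back into RPM, genes without a read were set to 0, and genes reaching 1 RPM in 2 or more of the 7 libraries were described on log2(RPM + 1). The set difference carries no test. Genotype was tested with limma 3.58.1 in R 4.3.3 (linear model with cells WT and KO of set 1, Het and KO of set 2, empirical Bayes with trend, two-sided, Benjamini-Hochberg adjustment, threshold 0.05). Library totals were compared by exact permutation. Transcript lengths, exons and GC content came from GENCODE M21, which held 96.8% of symbols, with 99.1% of those at identical coordinates. Promoters came from RefSeq (GRCm38.p6).

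The members, the 20 gene lists and the comparisons were chosen with earlier results of these data known, and the testis, chromosome, gene type and motif breakdowns after the values had been seen. Named genes were the 12 with the widest gap in each direction, up to 4 per list, and for KO the 5 per direction with the smallest p, leaving out predicted genes and pseudogenes; further members of the lists are named as examples. A result that this rule would name is not reported here. In simulated data of 10713 genes averaging at least 5 RPM, 200 were changed 8-fold and the others were not shifted between sets. There the set rule recovered 200 with 1 false call. This does not measure its error for 2-fold differences, for scarcer genes or under another scaling. Counts of reads differed between every pair of libraries of a group by more than sampling noise (chi-square per degree of freedom at least 10.7). Reads carry no molecular identifiers, so floors cover counting error only and take reads as independent counts. Of the recovered counts from 2 to 50 in the spermatid libraries, 61.3% to 63.5% were even, and the reason was not tested. At these totals 3 reads, the limit for a gene with no read, correspond to 0.143 to 0.277 RPM.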

Additional observations from a re-analysis of the deposited data

Results flagged for a closer look

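Among 116 values examined in the 4 libraries of set 2, which is not one of the study's groups, 5 had a library farther from the others than Dixon's 95% limit for the gap over the range allows. Chance flags about 1 in 20. KO replicate 2 stood alone for 3 genes: Meig1 was at 1792 RPM against 1482 to 1525 RPM in the other libraries, Eng, an endothelial receptor, at 7.38 RPM against 1.47 to 2.41 RPM, and Cox7a2 at 323 RPM against 206 to 219 RPM. KO replicate 3 stood alone for Col6a2, at 39.7 RPM against 17.99 to 21.2 RPM. Het replicate 2 had the lowest sum of axoneme and motility genes, 16474 RPM against 16803 to 16866 RPM, a small difference between closely grouped values. The groups given by the labels hold at most 3 libraries and were not examined in this way.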

How the results depend on the processing

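The number of genes higher in set 2 was 1478 with a mean of at least 5 RPM, 1288 with centred libraries, 1421 with quantile normalization, 1371 and 1285 with gene span and transcript length removed, and 479 at 4-fold. The number lower was 1871 with centred libraries, 1559 with quantile normalization, 1224 with TMM scaling, 1452 with gene span removed, 22 at 4-fold and 1227 for Het minus WT alone. Leaving out each library gave 2646 to 2900 higher and 723 to 1244 lower, the last without KO replicate 1. The replicate block gave 2791 and 807. The axoneme median turned to -0.0828 with centred libraries, -0.0133 with gene span removed and -0.0708 with transcript length removed, and no other list median that stood beyond its spread changed sign. For named genes, 1505 of the values under alternatives stayed within the spread between libraries and 273 moved beyond it, none reversing.

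Calls for KO depended strongly on settings, and the cause was not tested. With set as a covariate they numbered 35 with a pseudocount of 0.1 RPM, 193 with a mean of at least 5 RPM, 0 without a filter, 10 with the replicate block, 116 with voom, and 0 to 70 when a library was left out. Within set 1 they numbered 167 with a mean of at least 5 RPM, 0 without a filter, 21 with quantile normalization, 34 with the replicate block, 191 with voom, and 0 to 53 when a library was left out (53 and 51 without WT replicates 1 and 2, 30 and 26 without KO replicates 2 and 3, and 0 without either Het replicate). Within set 2 they numbered 5 with a mean of at least 5 RPM, 0 without a filter, 4 with the replicate block, and 0 to 4 without a library. The difference between sets gave 1 with voom and 0 to 2 without a library. Without KO replicate 1 only the contrast within set 2 could be fitted, and a lone library was assumed to vary like the others. Deviations of Het and KO replicate 2, the only same-numbered pair of set 2, correlated at 0.0155, so pairing was not shown.

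With 3 and 4 libraries, and 1 KO library in set 1, a KO effect and the library cannot be told apart there.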
